A study of Homo sapiens with 40 samples.

Results

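The MYC and PVT1 locus lies on the long arm of chromosome 8, with MYC at chr8:127735434-127742951 and the long noncoding RNA gene PVT1 at chr8:127794526-128187101, both on the plus strand (GRCh38, GENCODE release 44). Accessible regions were built from the ATAC-seq peaks of 40 libraries, which were merged wherever they shared 1 bp or more, and a merged region was retained when 2 or more libraries had it. Of 71600 such regions, the 74 whose midpoint lay between 500 kb before the MYC start and 500 kb after the PVT1 end were taken as the locus, a window of 1451.7 kb. A further 7 merged regions in the window were found in 1 library only and were not kept, and 2 of the 74 were found in exactly 2 libraries. The first region inside the window (chr8:127266807-127267225) had a peak in 9 libraries and the nearest one outside it (chr8:127215036-127215585) in 22. At the other end, the last region inside (chr8:128653285-128653648) had a peak in 21 libraries and the next one outside (chr8:129145841-129146128) in 18.

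MYC encodes a basic helix-loop-helix transcription factor that pairs with MAX and drives growth and cell cycle genes, and it is a classical immediate target of growth factor signaling. PVT1 gives rise to many long noncoding isoforms from several start sites and hosts a group of microRNA hairpins. Enhancers in its introns and in the gene desert before MYC contact the MYC promoter, and the PVT1 and MYC promoters can compete for them in breast cancer cells. CASC11 and CCAT2 are long noncoding RNA genes of the same neighborhood, the former on the minus strand with its annotated start inside MYC and the latter in the gene desert before MYC.

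The study asked how HER2+ breast cancer cells that respond or do not respond to trastuzumab, an antibody against HER2, react to ligands of the HER family. BT474 is a HER2-overexpressing breast carcinoma cell line sensitive to trastuzumab, and BT474R is a resistant derivative grown out under trastuzumab as 1 clone (clone 5), so a difference between the lines is a difference between BT474 and this clone. Cells of both lines were serum starved and then collected at baseline (0 h) or after EGF, HRG or vehicle (water, the control) for 1, 12 and 24 h. EGF binds EGFR, and HRG (heregulin) binds HER3 and HER4, which pair with HER2. Each of the 20 groups had 2 libraries, and EGF-BT474 and HRG-BT474 below share the same 6 control libraries, as do EGF-BT474R and HRG-BT474R. Treatments were duplicated per the study's methods, and whether duplicates came from separate passages or days is not stated, so p-values measure the spread between duplicates, which may be technical.

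Each value below is a rank percentile, the standing of a region's highest peak score among all peaks of its own library, where 100 is the strongest peak. The score is an area under a curve of significance and grows with peak width, so ranks were compared between libraries, and an order among regions also reflects their width. Lists held 47571 to 56846 peaks in BT474 and 32479 to 56494 in BT474R, and the 4 shortest were the BT474R control and EGF libraries at 12 h. Since a rank depends on what else was listed, each difference was also computed with ranks taken among shared regions only, those with a peak in every library of the fit, and is given where that changed the call of a mean effect or a line difference named below. Depth is unknown because read counts were not used here. In a bulk library, a region accessible in fewer cells and one less accessible in each cell cannot be told apart. DNA copy number was not measured here, and its part in differences between the lines was not tested. Promoter regions of all 9 luminal marker genes examined, among them KRT8, GATA3 and ERBB2, were open in all 40 libraries, whereas of 9 markers of leukocytes, endothelium, fibroblasts and basal cells PTPRC, CD3E, PECAM1 and KRT14 had no peak in any, CDH5 and COL1A1 had one in all 40, and COL3A1, PDGFRB and KRT5 had one in 6 to 21.

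Of the 74 regions, 27 (36.5%) had a peak in all 40 libraries, against 35.1% of all regions and 31.5% of those on the rest of chromosome 8. PVT1 itself held 43 of the 74, of which 35 had a peak in all 20 BT474 libraries and 17 in all 20 BT474R libraries, and 7 had none in BT474R. Of all 71600 regions, 36820 had a peak in all 20 BT474 libraries, 28260 in all 20 BT474R libraries, and 9926 (13.9%) had none in BT474R. The gene desert before MYC held 17, with 7 open throughout each line. MYC held 1, the stretch between the genes 2, and the stretch after PVT1 11. Regions were 252 to 4239 bp wide with a median of 677 bp, and the widest was the one at the MYC start. BT474 libraries had 56 to 68 peaks in the window and BT474R libraries 32 to 61. Per 1000 peaks of the library, this came to 1.17 ± 0.0458 in BT474 and 1.10 ± 0.0614 in BT474R (SD, n = 20 each).

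**Figure D1:**
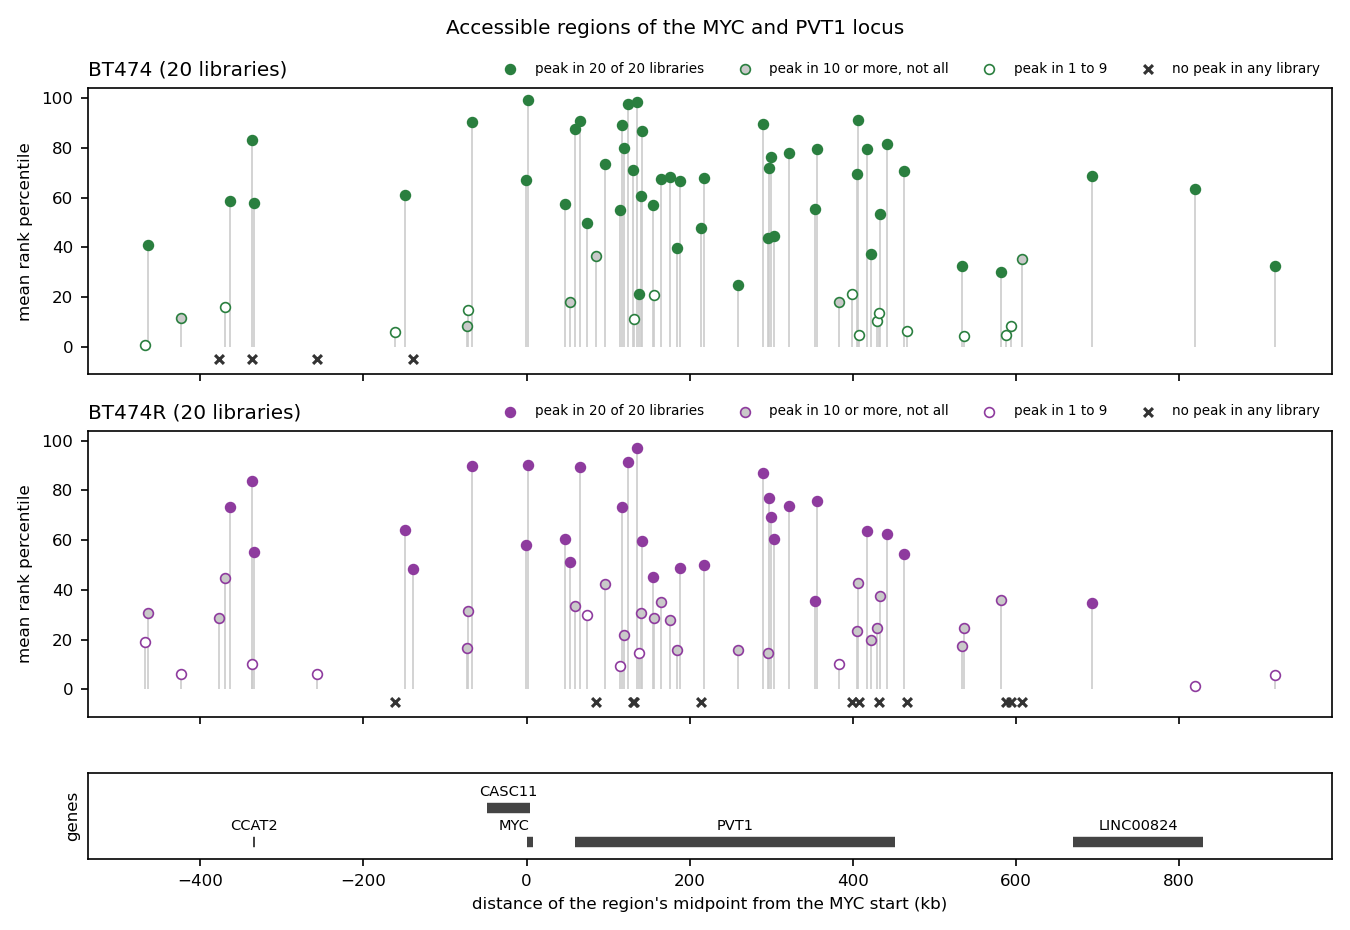
Map of the 74 regions by distance from the MYC start in kb (x axis), with the mean rank percentile of each region in each line (y axis, mean over the libraries with a peak). The 43 regions inside PVT1 make up most of the map, and the region at the MYC start stands near the top of the scale in BT474.

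The MYC promoter region (chr8:127734966-127739204, spanning the MYC start, exons of MYC and exons of CASC11) was open in all 40 libraries and ranked higher in BT474 than in BT474R. In BT474 the 20 libraries ranged from 97.1 through a median of 99.7 to 99.8, and in BT474R from 78.9 through 91.6 to 94.1. Every BT474 library stood above every BT474R library. The means were 99.0 ± 1.07 and 90.3 ± 4.15 (SD, n = 20 each), a difference of -8.72 points (SE 0.659, limma adjusted p = 1.95e-11). At baseline, where no vehicle or ligand had been added, BT474 libraries stood at 99.7 and 97.6 and BT474R libraries at 91.5 and 90.3, a difference of -7.70 points (limma adjusted p = 0.00454).

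The shape of the region differed as well. In 14 BT474 libraries it was listed as 1 unbroken peak, ranking 99.6 to 99.8, and in the other 6 as 2 peaks, ranking 97.1 to 98.2. In BT474R it was split into 2 peaks in 6 libraries, 3 in 10 and 4 in 4. The peaks covered a median of 4181.5 bp in BT474 and 3266.5 bp in BT474R. A split divides the score between peaks, so the scores in the region were also added up, an alternative chosen after seeing the data. Summed scores ranked 99.6 ± 0.0672 in BT474 and 96.2 ± 2.63 in BT474R (SD, n = 20 each), and the difference shrank to -3.38 points but kept its direction (limma adjusted p = 5.95e-07).

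**Figure D2:**
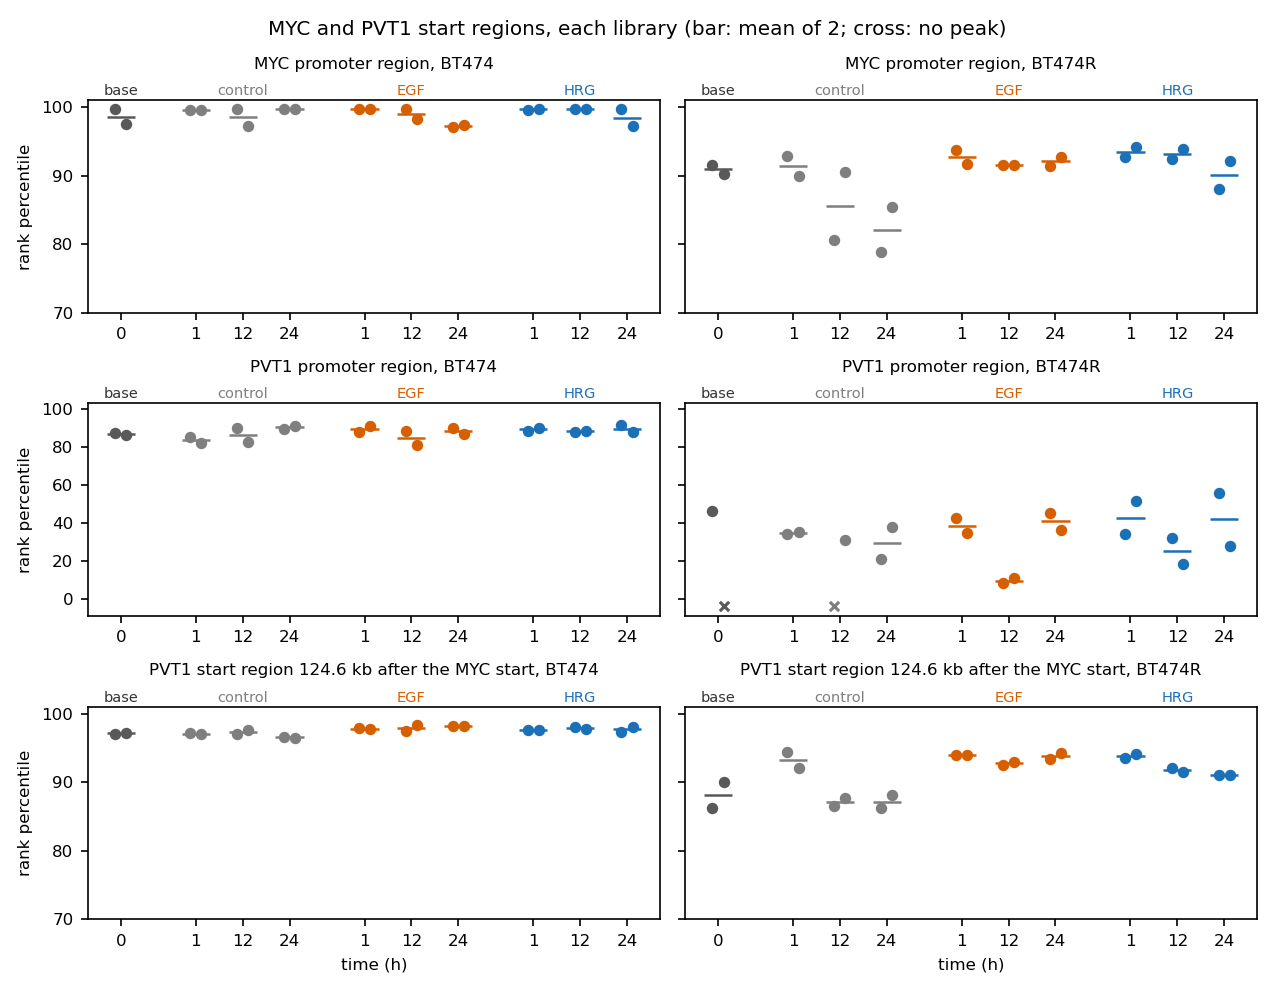
Rank percentile (y axis) of the MYC promoter region, the PVT1 promoter region and the PVT1 start region 124.6 kb after the MYC start in each library, by arm and time in h (x axis), with BT474 on the left and BT474R on the right. Points are libraries, bars are means of 2, crosses mark no peak, and the y axis starts at 70 in the top and bottom rows only. Every BT474 library stands above every BT474R library in all 3 regions.

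In BT474R the MYC promoter region ranked higher after either ligand than in the vehicle controls. The BT474R controls stood at 92.9 and 89.9 at 1 h, 80.6 and 90.6 at 12 h, and 78.9 and 85.4 at 24 h. EGF-BT474R stood at 93.7 and 91.7, 91.5 and 91.6, and 91.5 and 92.8 at the same times, and HRG-BT474R at 92.8 and 94.1, 92.4 and 93.9, and 88.1 and 92.1. The ligand libraries overlapped the controls at 1 h. At 12 and 24 h every ligand library stood above both controls of its time, and the low values were in the controls. Over the 3 times, EGF-BT474R exceeded control by 5.74 points (SE 1.53, limma adjusted p = 0.0236) and HRG-BT474R by 5.87 (SE 1.53, limma adjusted p = 0.0336).

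Both calls depend on single libraries and on how the region is scored. The EGF-BT474R call was lost on leaving out any of 6 of the 20 BT474R libraries (adjusted p up to 0.0753) and with summed scores (2.20 points, limma adjusted p = 0.269). The HRG-BT474R call was lost on leaving out any of 8 (adjusted p up to 0.114), with ranks among shared regions (adjusted p = 0.0821) and with summed scores (3.42 points, adjusted p = 0.0768). By time, EGF-BT474R passed only at 24 h, with 92.1 against 82.1 in control, a difference of 9.99 points (SE 2.66, limma adjusted p = 0.0331), a call lost on leaving out any of 3 libraries (adjusted p up to 0.364) and with summed scores (4.98 points, adjusted p = 0.148). In order of their means, the BT474R groups ran from HRG at 1 h (93.5) through HRG at 12 h (93.2), EGF at 1 h (92.7), EGF at 24 h (92.1), EGF at 12 h (91.5), control at 1 h (91.4), baseline (90.9) and HRG at 24 h (90.1) to control at 12 h (85.6) and control at 24 h (82.1). The 2 libraries of each group overlapped those of its neighbors in this order.

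In BT474 neither ligand passed the test at the MYC promoter region. Its controls stood at 99.6 and 99.6 at 1 h, 99.8 and 97.3 at 12 h, and 99.8 and 99.8 at 24 h. EGF-BT474 stood at 99.7 and 99.7, 99.7 and 98.2, and 97.1 and 97.5, and HRG-BT474 at 99.6 and 99.8, 99.7 and 99.7, and 99.7 and 97.2. At 1 h both EGF libraries stood just above their controls, and at 24 h the libraries of both ligands stood below theirs. The 2 EGF libraries at 24 h had the region as 2 peaks (-2.51 points, limma adjusted p = 0.0677, -3.76 points, adjusted p = 0.0492, among shared regions, and -0.158 points, adjusted p = 0.431, with summed scores). Averaged over time, EGF-BT474 differed from control by -0.683 points (SE 0.497, limma adjusted p = 0.405) and HRG-BT474 by -0.0297 (limma adjusted p = 0.980). A region at the top of the scale has little room to rise. The EGF effect was 6.42 points greater in BT474R than in BT474 (SE 1.70, limma adjusted p = 0.0398), a call lost on leaving out any of 20 of the 40 libraries, with summed scores (2.24 points, adjusted p = 0.435), with log2 scores (adjusted p = 0.165) and with scores of at least 400 only (adjusted p = 0.0503). For HRG the difference of effects was 5.90 points and did not pass (limma adjusted p = 0.0818).

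Just before the MYC start, at a distance of 1.3 kb, a region on CASC11 exons (chr8:127733848-127734433) was also open in all 40 libraries. It ranked 67.0 ± 2.10 in BT474 and 58.1 ± 4.63 in BT474R (SD, n = 20 each), a difference of -8.95 points (SE 0.957, limma adjusted p = 8.38e-09). Neither ligand passed the test there in either line. The region 47.2 kb after the MYC start (chr8:127782196-127782993), one of the 2 lying between MYC and PVT1, went the other way, ranking 3.16 points higher in BT474R (limma adjusted p = 0.0414), and lost its call on leaving out any of 22 of the 40 libraries.

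The PVT1 promoter region (chr8:127793771-127796123, which also holds the MIR1204 hairpin) was open in all 20 BT474 libraries and in 18 of 20 BT474R libraries, where it ranked far lower. In BT474 the libraries ranged from 81.2 through a median of 88.3 to 91.5. In BT474R those with a peak ranged from 8.56 through 34.6 to 55.8, and 1 baseline and 1 control library had none. The lines did not overlap. The means were 87.7 ± 3.00 (SD, n = 20) and 33.6 ± 12.8 (SD, n = 18), and the peaks covered a median of 2009.5 bp in BT474 and 539 bp in BT474R. Counting no peak as 0, the difference was -57.5 points (SE 3.32, limma adjusted p = 5.63e-14).

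Neither ligand moved the PVT1 promoter past the test in BT474. Control libraries stood at 85.5 and 82.0, 90.3 and 82.5, and 89.5 and 91.2 at 1, 12 and 24 h. EGF-BT474 stood at 87.8 and 91.0, 88.6 and 81.2, and 90.2 and 87.0 (+0.790 points over time, limma adjusted p = 0.780), and HRG-BT474 at 88.7 and 89.8, 88.0 and 88.5, and 91.5 and 87.9 (+2.25 points, limma adjusted p = 0.339). The arms overlapped. In BT474R the lowest values were those of EGF at 12 h, 8.56 and 10.7, against 31.3 in the 1 control library of that time with a peak, while at 24 h EGF stood at 45.4 and 36.5 and control at 21.2 and 38.0.

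Further start sites of PVT1 isoforms lie along the gene, and 7 other regions were within 1 kb of one. The highest-ranked of them, 124.6 kb after the MYC start (chr8:127859299-127860694, overlapping a PVT1 exon), was open in all 40 libraries, at 96.5 to 98.3 in BT474 (97.5 ± 0.523, SD, n = 20) and 91.3 ± 2.85 in BT474R (SD, n = 20). The lines did not overlap, and the difference was -6.23 points (SE 0.250, limma adjusted p = 1.91e-16). In BT474R its controls stood at 94.4 and 92.1 at 1 h, 86.5 and 87.6 at 12 h, and 86.3 and 88.0 at 24 h. EGF-BT474R stood at 93.9 and 94.0, 92.5 and 93.0, and 93.4 and 94.2, and HRG-BT474R at 93.5 and 94.1, 92.0 and 91.4, and 91.0 and 91.0. As at the MYC promoter, ligand and control overlapped at 1 h and separated at 12 and 24 h. The mean effect was 4.35 points for EGF (SE 0.615, limma adjusted p = 0.000567) and 3.02 for HRG (limma adjusted p = 0.0117, and 0.279 among shared regions). In BT474 the effects were smaller, 0.970 points for EGF (limma adjusted p = 0.00148) and 0.779 for HRG (limma adjusted p = 0.00669). There the region stood near the top of the scale, with little room to rise. For EGF the lines differed by 3.38 points (SE 0.646, limma adjusted p = 0.00406), which did not pass with ranks among shared regions (adjusted p = 0.101).

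The start region 119.0 kb after the MYC start (chr8:127853860-127854931) was open in all 20 BT474 libraries and in 10 of 20 BT474R libraries (Fisher's exact adjusted p = 0.000953). BT474 controls stood at 74.0 and 77.4 at 1 h, 75.4 and 74.7 at 12 h, and 76.7 and 76.9 at 24 h. EGF-BT474 stood at 84.8 and 82.3, 80.0 and 82.1, and 85.2 and 83.4, and HRG-BT474 at 83.4 and 84.9, 82.7 and 82.6, and 82.2 and 82.3. Every ligand library stood above every control, from 1 h on. EGF raised the region by 7.09 points (SE 0.771, limma adjusted p = 3.72e-05) and HRG by 7.17 (limma adjusted p = 2.92e-05). In BT474R it had a peak in 1 baseline, 1 control, 4 EGF and 4 HRG libraries, with ranks of 21.7 ± 10.8 (SD, n = 10).

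At the start region 259.6 kb after the MYC start (chr8:127994827-127995219) both ligands raised the rank in BT474, and peaks in BT474R were found after ligand only. In BT474, baseline libraries stood at 9.82 and 3.25 and controls at 12.1 and 7.16, 7.55 and 11.7, and 3.83 and 0.338 at 1, 12 and 24 h. EGF-BT474 stood at 41.5 and 34.1, 24.9 and 46.6, and 32.0 and 41.7, and HRG-BT474 at 30.5 and 30.6, 41.5 and 42.2, and 26.5 and 47.8. The lowest ligand library was above the highest control and baseline library. These were the largest mean effects of either ligand at the locus in BT474, 29.7 points for EGF (SE 4.18, limma adjusted p = 0.000241) and 29.4 for HRG (limma adjusted p = 0.000257). With ranks among shared regions they were 14.9 and 17.6 points and still passed (adjusted p = 0.00884 and 0.00226). In BT474R no baseline or control library had a peak there. All 6 EGF libraries did, at 18.8 and 8.25, 16.5 and 13.7, and 24.3 and 31.4, and so did 5 of 6 HRG libraries, at 3.29 and 13.4, 14.4 and 17.0, and 14.2 for the 1 at 24 h. By Fisher's exact test against control the p-values were 0.00216 for EGF and 0.0152 for HRG, and neither passed adjustment (0.217 and 0.657).

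Among the remaining PVT1 start regions, the one 303.4 kb after the MYC start (chr8:128038309-128039305) ranked higher in BT474R, 60.3 ± 10.0 against 44.6 ± 13.4 (SD, n = 20 each), a difference of 15.7 points (limma adjusted p = 9.07e-07). EGF-BT474 exceeded control there by 18.2 points and HRG-BT474 by 18.3 (limma adjusted p = 0.0231 for each), EGF-BT474R by 8.65 (0.0197) and HRG-BT474R by 10.3 (0.0152), and with ranks among shared regions EGF-BT474 (adjusted p = 0.0613), EGF-BT474R (0.106) and HRG-BT474R (0.324) did not pass. On leaving out 1 of the 20 libraries of the line, the call was lost for 6 in EGF-BT474, 5 in HRG-BT474, 5 in EGF-BT474R and 3 in HRG-BT474R. At 154.8 kb (chr8:127889953-127890554) the mean fell from 56.9 in BT474 to 45.2 in BT474R, a difference of -11.7 points (limma adjusted p = 5.09e-08). The regions at 176.1 kb (chr8:127910935-127912041) and 156.5 kb (chr8:127891660-127892277) were open in 20 and 7 BT474 libraries and in 15 and 12 BT474R libraries.

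The region 66.7 kb before MYC (chr8:127667982-127669536, on an exon of the unnamed lncRNA ENSG00000286010) ranked higher with both ligands than in control in both lines, as a mean over time. BT474 controls stood at 85.6 and 86.5 at 1 h, 82.6 and 84.3 at 12 h, and 81.5 and 81.3 at 24 h, below the baseline libraries at 92.6 and 89.3. EGF-BT474 stood at 88.8 and 87.6, 95.5 and 97.0, and 95.0 and 95.9, and HRG-BT474 at 88.8 and 88.5, 97.5 and 97.2, and 96.6 and 97.4. All ligand libraries stood above all controls, and those at 12 and 24 h also above baseline. The mean effect was 9.68 points for EGF (SE 0.540, limma adjusted p = 4.82e-07) and 10.7 for HRG (limma adjusted p = 1.89e-07), reaching 14.1 and 15.6 points at 24 h. Controls differed from baseline by -7.48 points at 12 h (limma adjusted p = 0.00786) and -9.57 at 24 h (0.00137).

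In BT474R the controls at this region stood at 93.3 and 92.1, 82.9 and 85.9, and 82.5 and 83.6, and baseline at 90.3 and 91.9. EGF-BT474R stood at 92.5 and 92.7, 91.3 and 90.1, and 92.3 and 92.0, and HRG-BT474R at 92.6 and 92.4, 90.9 and 91.8, and 86.9 and 89.5. EGF libraries and HRG libraries up to 12 h stayed between 90.1 and 92.7, near baseline, while controls at 12 and 24 h and HRG at 24 h lay below baseline. EGF exceeded control by 5.09 points (SE 0.619, limma adjusted p = 0.000217) and HRG by 3.96 (limma adjusted p = 0.00356, and 0.164 among shared regions). The effects were smaller in BT474R than in BT474, by a difference of -4.59 points for EGF (SE 0.847, limma adjusted p = 0.00307) and -6.72 for HRG (limma adjusted p = 4.89e-05). Both differences passed on leaving out any of the 40 libraries. The line means themselves differed by -0.604 points, which did not pass (limma adjusted p = 0.0924).

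**Figure D3:**
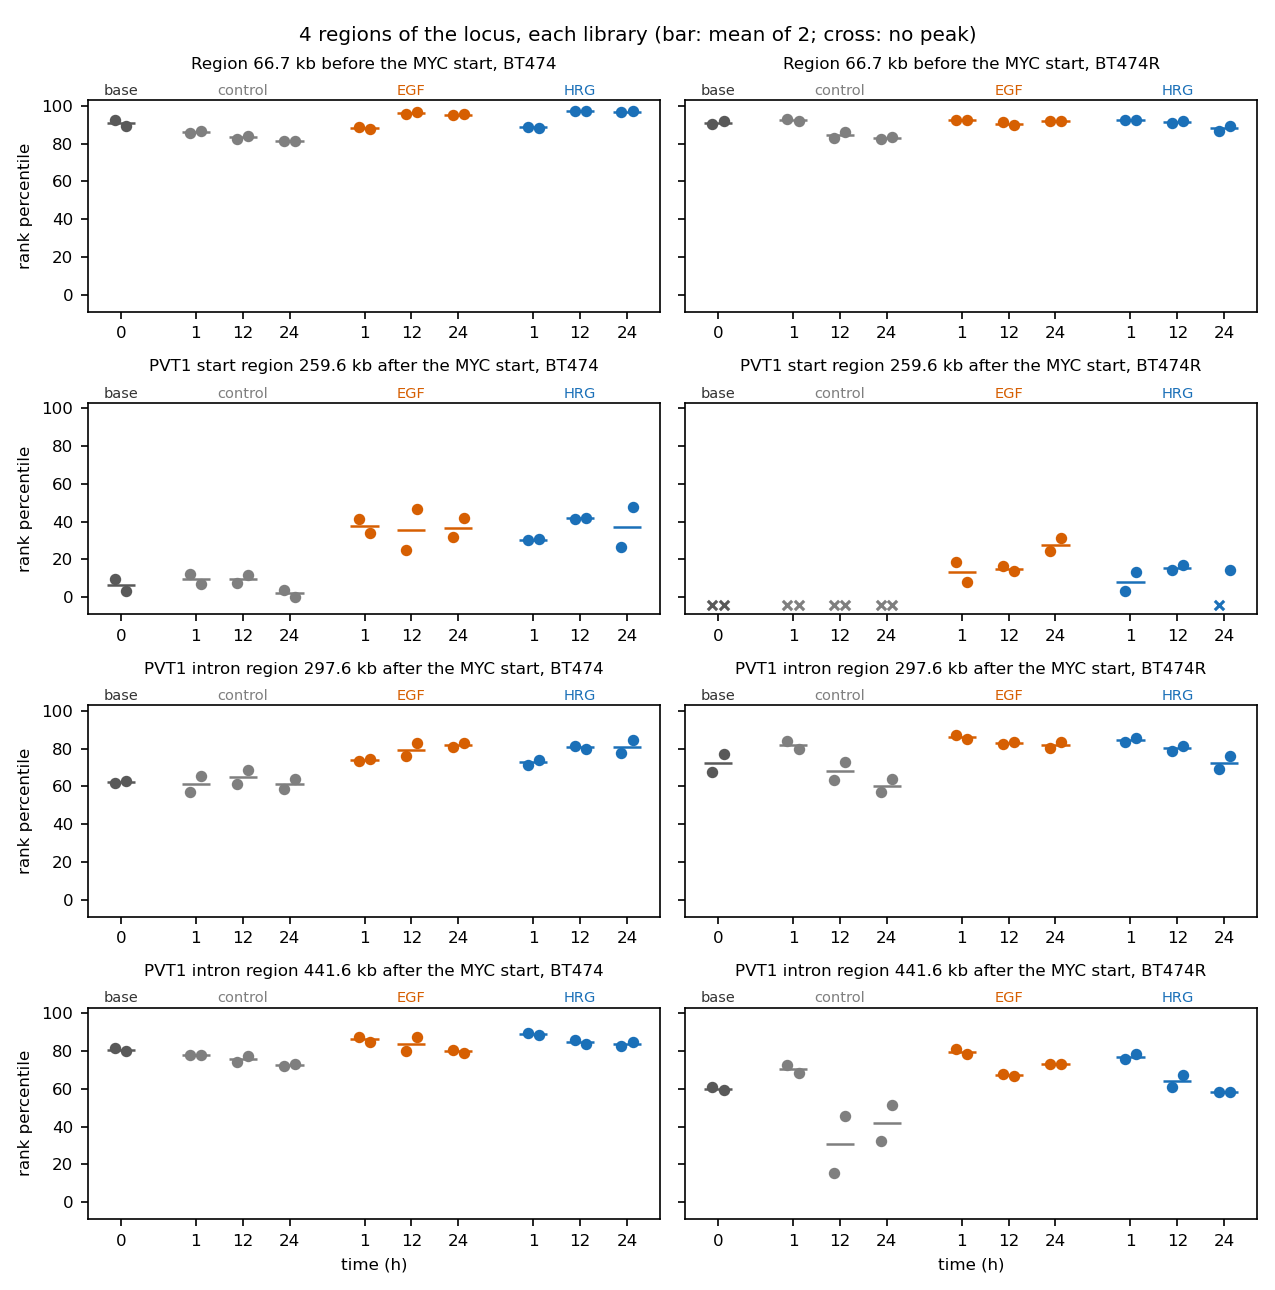
Rank percentile (y axis) in each library of 4 regions named by distance from the MYC start, by arm and time in h (x axis), with BT474 on the left and BT474R on the right. Points are libraries, bars are means of 2 and crosses mark no peak. At 259.6 kb the BT474R baseline and control libraries are all crosses and EGF libraries all points.

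Counted over the locus, every region called for the mean of a ligand over time was called upward. Of the 50 regions with a peak in all 20 BT474 libraries, 23 rose with EGF and 0 fell, where 17.6% of all regions tested rose and 1.19% fell. With HRG-BT474, 16 rose and 0 fell, against 13.0% and 5.71%. Of the 29 regions with a peak in all 20 BT474R libraries, 12 rose with EGF and 0 fell, against 9.8% and 4.37%, and 11 rose with HRG and 0 fell, against 8.17% and 0.0283%. The median difference at the locus and over all regions was 4.62 and 0.878 points in EGF-BT474, 2.23 and -0.199 in HRG-BT474, 3.37 and -0.0668 in EGF-BT474R, and 5.58 and 2.32 in HRG-BT474R. With ranks among shared regions, 15 rose and 0 fell in EGF-BT474 (11.7% and 5.85% of all regions), 16 and 0 in HRG-BT474 (12.7% and 9.69%), 11 and 3 in EGF-BT474R (11.0% and 8.49%) and 1 and 0 in HRG-BT474R (2.84% and 0.824%). The HRG-BT474R count thus depends on how ranks are taken, and the 3 that fell in EGF-BT474R lay within PVT1 at 216.9, 353.3 and 355.9 kb (adjusted p = 0.0213, 0.0304 and 0.0123).

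By time, EGF-BT474 had 4 regions up at 1 h, 12 at 12 h and 19 at 24 h, with 1.91%, 8.07% and 12.8% of all regions up. HRG-BT474 had 8, 11 and 16 up, with 3.8%, 8.38% and 8.88% of all regions, and 1 region down at 1 h, with 6.97% of all regions down. EGF-BT474R had 0 up and 1 down at 1 h, then 9 and 12 up at 12 and 24 h, where 0.0%, 6.23% and 7.99% of all regions were up and 0.138% were down at 1 h. HRG-BT474R had 0 at 1 h, 14 at 12 h and 0 at 24 h, with 0.0%, 14.0% and 0.138% of all regions up. Among shared regions the 12 h counts were smaller, 4 up in EGF-BT474, 5 in EGF-BT474R and 2 in HRG-BT474R, where 4.35%, 5.98% and 2.25% of all regions were up. The region down in EGF-BT474R at 1 h lies in a PVT1 intron 65.5 kb after the MYC start (chr8:127800026-127801837; a difference of -7.68 points, SE 1.09, limma adjusted p = 0.0195). This was the only call of EGF-BT474R at 1 h. It was lost on leaving out either control or either EGF library of 1 h, and with summed scores. For most other effects at single times, leaving out libraries is given only as counts of calls.

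**Figure D4:**
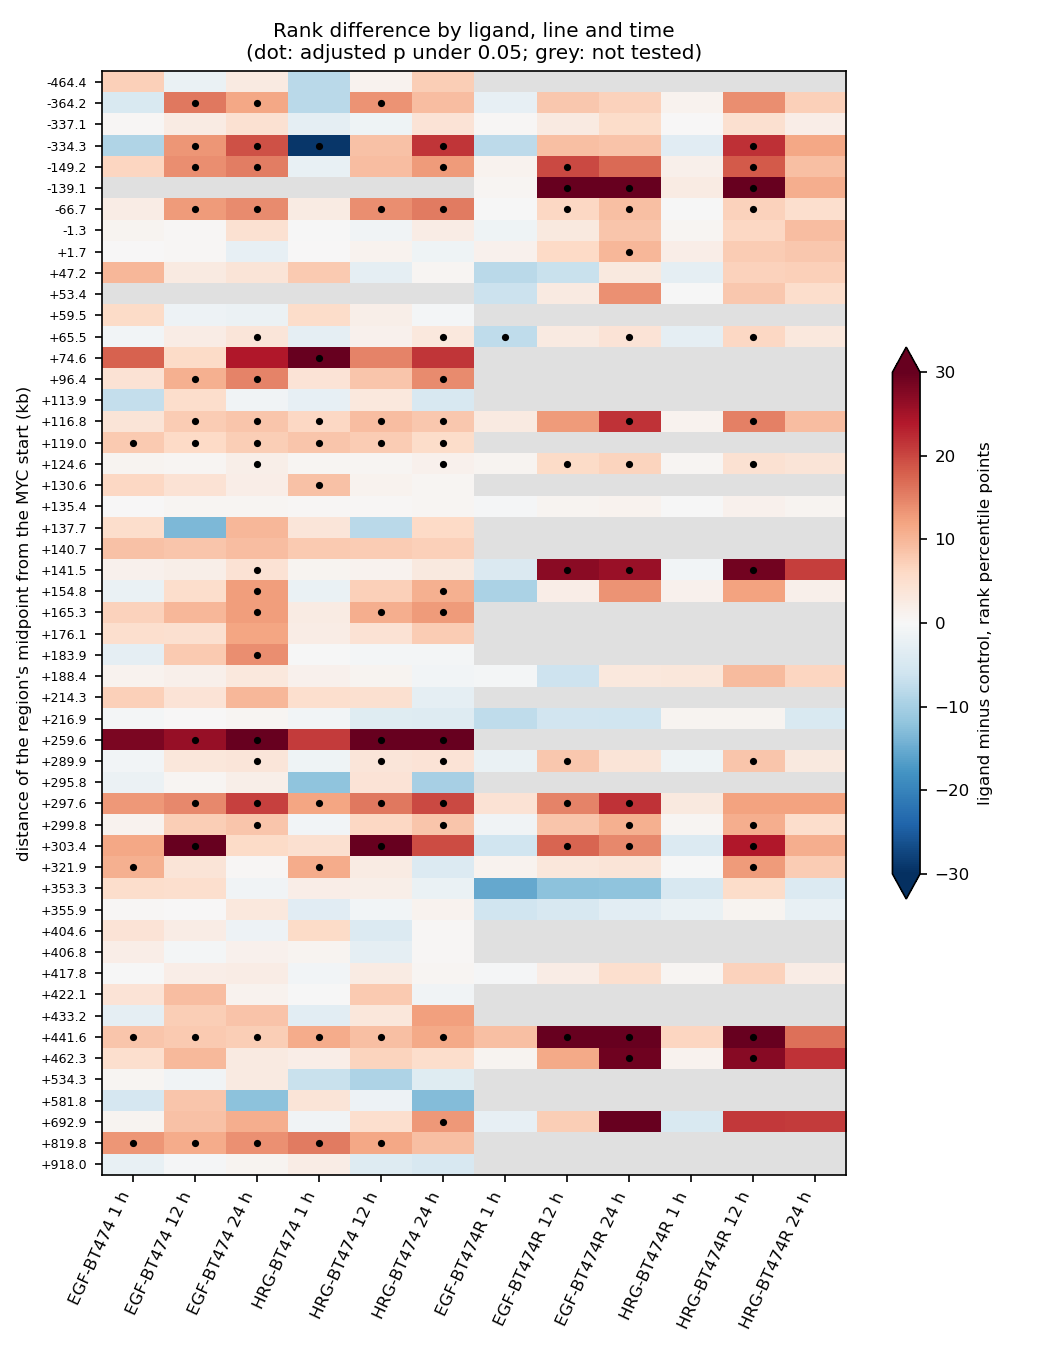
Difference between ligand and control in rank percentile points (color) for each region tested (rows, by distance from the MYC start in kb) and each ligand, line and time (columns). Dots mark a limma adjusted p under 0.05 and grey cells were not tested because a library of that line had no peak. Of the dots, 2 are blue, at the CCAT2 region 334.3 kb before MYC in HRG-BT474 at 1 h and at 65.5 kb in EGF-BT474R at 1 h.

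Inside PVT1, away from its annotated starts, both ligands raised several regions in BT474. At 297.6 kb after the MYC start (chr8:128032658-128033443, intronic) BT474 controls stood at 56.7 and 65.2, 61.4 and 68.4, and 58.5 and 63.7 at 1, 12 and 24 h. EGF-BT474 stood at 73.5 and 74.5, 75.9 and 82.7, and 80.6 and 82.7, and HRG-BT474 at 71.5 and 74.1, 81.5 and 79.9, and 77.5 and 84.3. No ligand library overlapped a control. The effects were 16.0 points for EGF (SE 1.96, limma adjusted p = 8.76e-05) and 15.8 for HRG (limma adjusted p = 8.90e-05). In BT474R the controls ranged from 56.9 to 84.0 and overlapped the EGF libraries, at 80.5 to 87.0, and the HRG libraries, at 69.0 to 85.6, and the highest controls were those at 1 h, at 84.0 and 79.5. There EGF exceeded control by 13.6 points (SE 2.25, limma adjusted p = 0.00150) and HRG by 9.04 (limma adjusted p = 0.0275, and 0.279 among shared regions), the latter call being lost on leaving out any of 8 of the 20 libraries. This region ranked 5.21 points higher in BT474R than in BT474 (limma adjusted p = 0.000352).

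At 441.6 kb (chr8:128176508-128177557, intronic, near the PVT1 end) BT474 controls were 75.3 ± 2.67, EGF 83.2 ± 3.80 and HRG 85.8 ± 2.71 (SD, n = 6 each). EGF-BT474 exceeded control by 7.89 points (limma adjusted p = 0.000328) and HRG-BT474 by 10.5 (limma adjusted p = 3.62e-05). BT474R controls stood at 72.6 and 68.4 at 1 h, 15.7 and 45.5 at 12 h, and 32.5 and 51.6 at 24 h. EGF-BT474R stood at 80.8 and 78.4, 68.0 and 67.0, and 73.2 and 73.2, and HRG-BT474R at 75.5 and 78.6, 60.8 and 67.0, and 58.5 and 58.4. The controls at 12 and 24 h lay below the ligand libraries of those times. EGF exceeded control by 25.7 points (SE 4.33, limma adjusted p = 0.00164) and HRG by 18.8 (limma adjusted p = 0.0198), a call lost on leaving out any of 5 of the 20 libraries. The EGF effect was 17.8 points greater in BT474R than in BT474 (SE 4.66, limma adjusted p = 0.0366), and this call was lost on leaving out any of 19 of the 40 libraries.

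Also within PVT1, the exonic region at 116.8 kb (chr8:127851408-127853112) rose from 84.7 ± 1.47 in BT474 controls to 91.4 ± 2.91 with EGF and 92.5 ± 2.04 with HRG (SD, n = 6 each; limma adjusted p = 5.34e-05 and 1.38e-05). In BT474R it rose from 66.8 ± 6.82 to 79.2 ± 6.11 with EGF (limma adjusted p = 0.00286) and 75.2 ± 4.63 with HRG (limma adjusted p = 0.0402, and 0.121 among shared regions), where the HRG call was lost on leaving out any of 14 of the 20 libraries. Intronic regions at 96.4 kb (chr8:127831511-127832087) and 165.3 kb (chr8:127900464-127901041) rose in BT474 by 9.96 and 9.79 points with EGF (limma adjusted p = 0.000834 and 0.00101) and by 8.90 and 8.61 with HRG (0.00189 and 0.00255). At 141.5 kb (chr8:127876500-127877334, intronic) EGF-BT474R and HRG-BT474R exceeded control by 16.2 and 16.3 points (limma adjusted p = 0.0237 and 0.0359, the latter 0.0922 among shared regions) and EGF-BT474 by 2.47 (0.0223, and 0.0626 among shared regions), and these calls were lost on leaving out any of 6, 14 and 6 libraries in that order. At 74.6 kb (chr8:127809481-127810658), open in 20 BT474 and 9 BT474R libraries, HRG-BT474 exceeded control by 24.2 points (limma adjusted p = 0.00903), and by 36.2 at 1 h (limma adjusted p = 0.0336). An intronic region at 321.9 kb (chr8:128056823-128057902) was up at 1 h in BT474, by 10.7 points with EGF and 11.1 with HRG (limma adjusted p = 0.0247 and 0.00731). The EGF call was lost without control 1 h replicate 1 and without EGF 1 h replicate 1, fits in which EGF-BT474 had no call at 1 h. The highest-ranked region within PVT1, intronic and at 135.4 kb (chr8:127869909-127871681), ranked 98.4 ± 0.489 in BT474 and 96.9 ± 0.529 in BT474R (SD, n = 20 each) and was called for neither ligand in either line.

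In the gene desert before MYC, a region 139.1 kb before its start (chr8:127596117-127596634) was open in all 20 BT474R libraries and in 0 of 20 BT474 libraries. In BT474R its controls stood at 63.8 and 57.9 at 1 h, 3.77 and 23.8 at 12 h, and 30.3 and 32.2 at 24 h, with baseline at 40.9 and 41.4. EGF-BT474R stood at 63.1 and 60.0, 55.1 and 56.3, and 60.2 and 65.9, and HRG-BT474R at 63.4 and 63.4, 47.4 and 52.1, and 43.6 and 40.9. The 1 h libraries of all arms overlapped, and at 12 and 24 h the ligand libraries were above the controls. EGF exceeded control by 24.8 points (SE 2.95, limma adjusted p = 0.000197) and HRG by 16.5 (limma adjusted p = 0.00650, and 0.0555 among shared regions). Nearby, at 149.2 kb before MYC (chr8:127585926-127586607), EGF-BT474 and EGF-BT474R exceeded control by 11.9 and 12.6 points (limma adjusted p = 0.000490 and 0.0141) and HRG-BT474 by 6.61 (0.0232), the last being lost on leaving out any of 7 of the 20 libraries. HRG-BT474R, at 9.57 points above control, did not pass there (limma adjusted p = 0.0727).

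The region at CCAT2 (chr8:127400762-127401563), 334.3 kb before the MYC start and open in all 40 libraries, changed sign with time in BT474. Controls stood at 53.9 and 54.7 at 1 h, 56.2 and 58.0 at 12 h, and 55.7 and 59.1 at 24 h. HRG-BT474 stood at 20.1 and 30.3, then 64.8 and 66.9, then 76.2 and 81.2, and EGF-BT474 at 47.9 and 42.8, then 67.4 and 73.2, then 78.1 and 74.8. Both ligands were below both controls at 1 h and above them at 12 and 24 h. HRG lowered the region at 1 h, by a difference of -29.1 points (SE 3.69, limma adjusted p = 0.000542), and raised it at 24 h by 21.3 (limma adjusted p = 0.00237). EGF raised it at 12 h by 13.2 points (limma adjusted p = 0.0429, and 0.0521 among shared regions) and at 24 h by 19.0 (0.00422). Averaged over time, the HRG effect was 0.343 points (limma adjusted p = 0.941) and the EGF effect 7.76 (0.0204), a call lost on leaving out any of 5 of the 20 libraries.

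After PVT1, the region at 462.3 kb (chr8:128197237-128198160) exceeded control by 5.88 points in EGF-BT474, 13.8 in EGF-BT474R and 16.7 in HRG-BT474R (limma adjusted p = 0.0256, 0.0374 and 0.0244), and among shared regions EGF-BT474 (0.106) and HRG-BT474R (0.0867) did not pass. Leaving out 1 of the 20 libraries lost the call for 6, 12 and 8 libraries in the same order. At 819.8 kb (chr8:128554769-128555611, in an intron of LINC00824), open in 20 BT474 and 2 BT474R libraries, the rank rose in BT474 from 56.3 ± 2.45 in control to 69.0 ± 3.17 with EGF and 68.3 ± 4.21 with HRG (SD, n = 6 each; limma adjusted p = 0.000226 and 0.000337). The LINC00824 start, at 692.9 kb (chr8:128427914-128428754), had a mean of 68.6 in BT474 and 34.8 in BT474R, a difference of -33.9 points (SE 2.18, limma adjusted p = 1.05e-12).

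Presence or absence of a peak gave few ligand results at the locus. Regions open in all or in none of the libraries of a line cannot differ by presence. Of the 74 regions these numbered 50 and 4 in BT474, and 29 and 12 in BT474R. Regions that could reach p = 0.05 by Fisher's exact test of 6 against 6 libraries numbered 1 in EGF-BT474, 0 in HRG-BT474, 7 in EGF-BT474R and 9 in HRG-BT474R. None passed after adjustment, where 6.46%, 8.98%, 0.0% and 0.0% of all testable regions did. In simulated data with 100 strong and 100 moderate changes among 71600 regions, the adjusted test recovered 0 of 100 strong changes in each ligand comparison. Recovery after adjustment depends on how many regions change. In the real data the test called 290 regions in EGF-BT474 and 427 in HRG-BT474, so the simulated recovery does not carry over to BT474. A missing call cannot show that a region did not change. At an unadjusted p under 0.05 the share of all testable regions was 19.0%, 24.7%, 4.08% and 2.31%, and at the locus the 259.6 kb region passed in both ligands in BT474R. In BT474 an intronic PVT1 region at 398.7 kb (chr8:128133810-128134378) had a peak in 2 of 2 baseline and 4 of 6 control libraries and in 0 of 12 ligand libraries (exact p = 0.0606 for each ligand). In BT474R a region 369.2 kb before MYC (chr8:127365942-127366457) had one in 2 of 6 controls and in 6 of 6 libraries of each ligand (exact p = 0.0606).

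Between the lines, more regions of the locus had their peaks mostly in BT474 than mostly in BT474R. Of the 74 regions, 36 (48.6%) had a peak in more BT474 than BT474R libraries, 11 (14.9%) in more BT474R libraries and 27 in equal numbers, where over all regions the shares were 37.9% and 25.5%. Peaks in BT474 only were found at 12 regions (16.2%, against 13.9% of all regions), and in BT474R only at 4 (5.41%, against 14.0%). Of 32 regions testable with 20 against 20 libraries, 28 passed Fisher's exact test after adjustment, 7 higher in BT474R and 21 lower, where 71.7% of all testable regions passed, 27.2% higher and 44.6% lower.

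Some regions were open throughout one line and never in the other, and the share of such regions over all regions was not computed. An intronic PVT1 region at 130.6 kb (chr8:127865607-127866550) and the LINC02912 start at 214.3 kb (chr8:127949404-127950011) had a peak in 20 BT474 and 0 BT474R libraries (Fisher's exact adjusted p = 1.91e-10), and the region 139.1 kb before MYC the reverse. A PVT1 exonic region at 84.5 kb (chr8:127819509-127820312) had one in 14 and 0, and an intronic region at 607.5 kb (chr8:128342723-128343177) in 19 and 0. The region 918.0 kb after the MYC start, on a CCDC26 exon (chr8:128653285-128653648), had one in 20 BT474 libraries and 1 BT474R library, and a PCAT1 exonic region 423.6 kb before MYC (chr8:127311562-127312180) in 16 and 1. In the other direction, the region 377.5 kb before MYC (chr8:127357652-127358190) had one in 0 BT474 and 19 BT474R libraries (adjusted p = 2.64e-09), and an intronic PVT1 region at 429.1 kb (chr8:128164376-128164680) in 4 and 18.

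**Figure D5:**
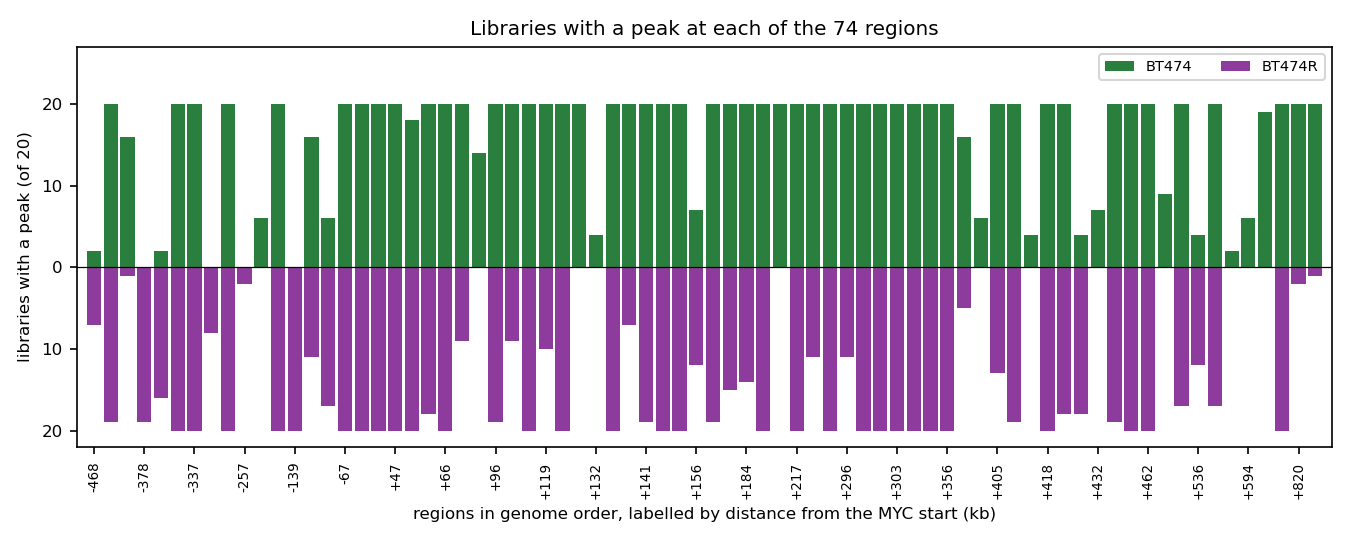
Number of libraries with a peak, of 20 in each line, at each of the 74 regions in genome order, labeled by distance from the MYC start in kb (x axis). BT474 bars point up and BT474R bars point down. Full-length BT474 bars number 50 and full-length BT474R bars 29.

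Among the 27 regions open in all 40 libraries, 19 ranked lower in BT474R and 4 higher, where 50.2% of all regions tested were lower and 32.6% higher. The median difference was -6.23 points at the locus, -3.81 over 1061 regions on the rest of chromosome 8 and -1.51 over all 25166. With ranks among shared regions 17 were lower and 6 higher, against 42.5% and 41.5% of all regions. That change added the region 149.2 kb before MYC (7.59 points higher in BT474R, adjusted p = 6.41e-05) and one at 337.1 kb before it, and lost those at 65.5 and 321.9 kb. With all 40 libraries, the 4 regions higher in BT474R were 364.2 kb before MYC (chr8:127370767-127371604, 73.3 against 58.7, limma adjusted p = 2.30e-10) and those at 47.2, 297.6 and 303.4 kb. The lower ones included PVT1 regions at 141.5 kb (a difference of -26.9 points, limma adjusted p = 1.38e-12), 188.4 kb (chr8:127923445-127924249, -17.8), 216.9 kb (chr8:127951965-127952684, -17.6) and 417.8 kb (chr8:128152736-128153768, -15.8). An intronic region at 406.8 kb (chr8:128141746-128142660) ranked 91.1 ± 1.53 in BT474 (SD, n = 20) and 42.8 ± 9.79 in BT474R (SD, n = 19). Using baseline libraries only, 10 were lower and 4 higher, against 20.3% and 25.5%, and the regions at 47.2 and 303.4 kb were not among the 4.

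Tested as the difference of mean effects between the lines, the EGF response passed at 3 regions higher in BT474R (the MYC promoter and those at 124.6 and 441.6 kb) and 1 lower (66.7 kb before MYC), where 0.421% of all regions were higher and 2.62% lower. The HRG response passed at 0 higher and at 1 lower, again 66.7 kb before MYC, where 0.779% of all regions passed in each direction.

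The vehicle controls themselves moved away from baseline, chiefly in BT474R. At 12 h, 15 of 29 regions ranked lower in BT474R control than at baseline, where 32.3% of all regions tested were lower and the median over all regions was -8.45 points, and the locus median was -10.0. Among shared regions none of the 15 passed, and 0.605% of all regions were lower. At 24 h, 4 were lower, where 3.27% of all regions were. In BT474 the region 66.7 kb before MYC was the 1 region lower at 12 h and at 24 h, where 0.0842% and 0.225% of all regions were. The part of list length in the ligand effects was not tested beyond the ranks among shared regions.

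Of the MYC and MAX network, 13 genes encoding MYC family members, their partner MAX and the MAX and MLX binding proteins, 12 had promoter regions open in all 40 libraries. Where a gene had several promoter regions, as MXI1 (4), MNT (5) and MYCN (2) did, only the one with the highest mean rank was used. Between lines, 6 ranked higher in BT474R and 5 lower (7 and 3 among shared regions), where 32.6% of all regions tested were higher and 50.2% lower (41.5% and 42.5% among shared regions). MYCN and MYCL, the paralogs of MYC, moved opposite to it, MYCN from 71.4 in BT474 to 87.5 in BT474R (limma adjusted p = 5.82e-08) and MYCL from 86.0 to 93.4. MXI1, an antagonist that pairs with MAX, went from 44.2 to 58.1, and MXD3, of the same kind, from 95.5 ± 0.652 to 63.1 ± 17.4 (SD, n = 20 each; a difference of -32.4 points, limma adjusted p = 2.02e-09). MAX went from 98.4 to 96.5, a difference of -1.92 points. With ligands, MYC in BT474R and MNT in HRG-BT474 (a difference of -0.755 points, limma adjusted p = 0.0294) were the calls in the network.

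Of the other genes of the window, PCAT1, CASC8, POU5F1B, CCDC26 and the hairpins MIR1205 to MIR1208 had no region within 1 kb of a start. Among 11280 genes with a promoter region open in all 40 libraries, those whose rank followed that of the MYC promoter most closely were GOLT1A (Pearson's r = 0.931), DYNC2I2 (0.930), MBD3L1 and ZNF558, which share 1 region (0.926), and FLT3LG (0.913). These are descriptions over 40 libraries that share the line difference, and after removing line means r was 0.761, 0.758, 0.782 and 0.712 in the same order.

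Short motifs were searched on both strands in the 201 bp around each region's strongest summit, as a description of these letters only. The AP-1 motif TGANTCA was found in 15 of 74 regions (20.3%, against 16.3% of all regions), the GATA motif AGATAA in 13.5% (against 8.89%), the FOXA motif TGTTTAC in 14.9% (8.48%) and the TCF/LEF motif ATCAAAG in 6.76% (1.84%). The E-box CACGTG, which MYC and MAX bind, was found in 4.05% (4.42%). Among the 23 regions raised in EGF-BT474, 8 (34.8%) held the AP-1 motif and 0 the GATA motif, and among the 16 raised in HRG-BT474, 6 (37.5%) and 0. Shares among all regions raised by a ligand were not computed, so whether these are particular to the locus was not tested.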

How the data were processed

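ATAC-seq libraries of BT474 and BT474R fell into 20 groups of 2 by the labels. The authors trimmed reads with Trim Galore 0.6.6, mapped them to GRCh38 with BBMap, removed mitochondrial and blacklisted reads and called peaks with Genrich in each library separately. The sources used here do not give Genrich's options. The authors deposited for each peak a score, the area under the curve of significance (lowest 200), and a summit offset, the other value used. Depth is unknown.

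Peaks were merged as described, and scores were turned into rank percentiles within each list. Ranks were tested with limma 3.58.1 (R 4.3.3, group means, trend) over regions with a peak in all libraries of the fit, with 1 fit per line for ligands and 1 fit of 40 libraries for lines and differences of effects. Peak presence was tested with two-sided Fisher's exact tests (scipy 1.17.1). All p-values were Benjamini-Hochberg adjusted over all regions tested (threshold 0.05), genome-wide. Both tests were checked on simulated data with 100 regions changed at each size of change. Recovery after adjustment depends on how many regions change, so these values hold for that setting only. After adjustment, Fisher's exact test recovered 0 of 100 strong changes in each ligand comparison and 98 of 100 between lines. The rank test of a ligand recovered 18 to 24 of 100 shifts of 5 points and 54 to 78 of 100 shifts of 15 points. Read counts were not analysed here, so the study's count model was not used. Alternatives were scores of 400 or more, the top 32479 peaks of every list, log2 scores, ranks among shared regions, no peak as 0, summed scores, 50% coverage, at least 4 lists, a replicate block and leaving out each library. Named were regions at MYC or PVT1 starts, the 10 with the smallest p in each comparison (all where fewer were called; without an adjusted call, the 2 smallest per direction) and the highest-ranked of each segment; regions at 398.7 and 406.8 kb and 369.2 and 377.5 kb before MYC were named after their values were seen. Genes came from GENCODE release 44, and a network or marker gene with several promoter regions was represented by the one with the highest mean rank. No sequence of the locus is printed, and 1 marker gene examined is not reported here. The members and the gene and motif lists were chosen with earlier results of these data known.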

Additional observations from a re-analysis of the deposited data

Results flagged for a closer look

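Differences between the lines in the response to a ligand, tested as the difference of the mean effects over 3 times (BT474R minus BT474), passed at 4 regions for EGF and 1 for HRG. For EGF the values were 6.42 points at the MYC promoter region, 3.38 at the PVT1 start region 124.6 kb after the MYC start, 17.83 at the PVT1 intron region at 441.6 kb and -4.59 at the region 66.7 kb before MYC. For HRG the value was -6.72 at the region 66.7 kb before MYC. At the first 3 the BT474R controls at 12 and 24 h were the low values, and the part of those libraries in the difference was not tested beyond leaving out 1 library at a time. In BT474 the MYC promoter region and the one at 124.6 kb stood near the top of the scale, with little room to rise.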

How the results depend on the processing

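Counts of regions called are given here under the settings that moved them. With a score of at least 400, regions called numbered 6 in EGF-BT474R, 4 at 12 h and 6 at 24 h, 7 in HRG-BT474R, 15 between lines, and 2 and 2 for the EGF and HRG differences of effects. With equal numbers of top peaks they were 13 in EGF-BT474 and 4 at 12 h, 5 in EGF-BT474R at 12 h, and 1 in HRG-BT474R and 1 at 12 h. With log2 scores they were 15 and 6 in EGF-BT474 and at its 12 h, 5 in EGF-BT474R at 12 h, 2 and 2 in HRG-BT474R and at its 12 h, and 2 for the EGF difference. Among shared regions they were 15 and 4 in EGF-BT474 and at 12 h, 5 in EGF-BT474R at 12 h, and 1 and 2 in HRG-BT474R and at 12 h. Counting no peak as 0 gave 19 in EGF-BT474R at 24 h, 2 in HRG-BT474R at 24 h, 50 between lines, and 7 and 5 for the EGF and HRG differences. Summed scores gave 0 in EGF-BT474R at 1 h and 2 for the HRG difference. With baseline and control libraries only, presence between lines passed at 17 regions.

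Leaving out 1 library at a time, presence calls were 0 to 0 for ligands and 28 to 29 between lines, and rank calls 22 to 30 between lines. They ranged in EGF-BT474 from 14 (without EGF 12 h replicate 2) to 29 (at 1, 12 and 24 h 0 to 7, 1 to 20 and 7 to 22), in HRG-BT474 from 12 to 21 (3 to 11, 3 to 13, 5 to 19) and in EGF-BT474R from 7 (without control 24 h replicate 1 or EGF 24 h replicate 2) to 15 (0 to 1, 3 to 14, 3 to 17). In HRG-BT474R they ranged from 3 (without control 1 h replicate 2 or control 24 h replicate 1) to 19 (without control 12 h replicate 2; 0 to 0, 3 to 24, 0 to 2 by time). The differences of effects ranged from 2 to 7 for EGF and 1 to 7 for HRG.

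At the MYC promoter region, effects that never passed changed sign. In EGF-BT474 at 12 h the value was -0.0119 with log2 scores, -0.0302 summed and -0.836 to 1.65 on leaving out 1 library, and in EGF-BT474R at 1 h -0.334 summed and -0.199 to 2.77. In HRG-BT474 leaving out 1 library gave -0.447 to 0.387 over time and -0.011 to 0.129 at 1 h, and at 12 h the value was -0.0326 summed and -0.0864 to 2.40. The causes were not tested. The replicate number as a block gave 24 calls in EGF-BT474, 9 in HRG-BT474R and 20 for presence between lines. Between groups of a line, deviations of same-numbered libraries correlated at r from -0.28 to 0.58, so some deviated together and others did not. Whether the numbers pair the libraries was not tested beyond this. For ligand presence no block could pass (smallest combined exact p = 0.0561). Peak lists keep no reads, so depth cannot be weighed.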
